A study of Mus musculus with 7 samples.

Results

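Cyclin-dependent kinase (Cdk) inhibitors and targets of the tumour suppressor p53 were followed in mouse embryonic fibroblasts (MEFs) as a view of cell cycle exit during direct reprogramming towards cardiac muscle. Members were the probe sets whose gene symbol in the platform annotation was 1 of 10 listed symbols. The annotation gave 9 of them, each with 1 probe set, among 19505 named genes. The remaining symbol, Gdf15, matched no probe set and is not analysed here.

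RNA was measured on 7 Affymetrix Clariom S mouse arrays, a 1-colour array, with 1 array per group and no replicate. All transduced cells received retroviruses for Gata4 and Tbx5 (GT) and 1 form of Mef2c. The siEp300 and siCtrl arrays held cells that were also given siRNA (small interfering RNA), directed at Ep300, which encodes the acetyltransferase p300, or a control. Their titles name isoform 2 of Mef2c and their other labels name its fusion to the MyoD transactivation domain, so which form they carried is not settled. The GT/M2TAD array carried that fusion, and the GT/M6, GT/M2 and GT/M1 arrays carried isoforms 6, 2 and 1. The MEF array held untreated fibroblasts. Transduced cells were collected at 1 week, and no array carried virus without the factors. The harvest time of the MEF array was not given, so factors, infection and time in culture cannot be told apart in any difference from it.

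In a dividing cell, cyclins bind and activate Cdks, which phosphorylate the retinoblastoma family and release E2F factors for S phase. INK4 inhibitors (Cdkn2a, Cdkn2b, Cdkn2c) bind Cdk4 and Cdk6, and CIP/KIP inhibitors (Cdkn1a, Cdkn1b, Cdkn1c) bind cyclin-Cdk complexes more widely. Cdkn1a is also the best known target of p53, which likewise induces its own ubiquitin ligase Mdm2, cyclin G1 (Ccng1) and the stress protein gene Trp53inp1. Mouse Cdkn2a encodes p16Ink4a and p19Arf from separate first exons, and Arf restrains Mdm2. Products of this locus are known to accumulate as MEFs are kept in culture.

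Promoter sequence was available from RefSeq (GRCm38.p6) for 7 of the 9 measured members, as 10 windows reaching from 250 bases before to 50 bases after a transcript start. For p53, the families of the transduced factors and 3 common promoter elements, 7 kinds of motif were searched on both strands: the Sp1 box GGGCGG, the TATA box TATAAA, the E2F site TTTNNCGC, the T-box core GGTGTGA, the GATA site AGATAA, the p53 half-site and the MEF2 site. A position matched on both strands was counted once. Over 32851 windows of 300 bases in the whole table, 35.7% held the Sp1 box, 13.6% the TATA box, 5.17% the E2F site, 3.98% the T-box core, 11.2% the GATA site, 8.36% the p53 half-site and 3.19% the MEF2 site.

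The windows below belong to the members that stood highest above MEF among the inhibitors, with every motif match in capitals and the rest in lower case. Cdkn2a is shown at both of its starts, chr4:89294570-89294869 and, downstream, chr4:89282143-89282442, and its neighbour Cdkn2b at chr4:89310983-89311282, all on the minus strand. Cdkn1a is shown at its upstream start, chr17:29090729-29091028 on the plus strand.
Cdkn2a, upstream start: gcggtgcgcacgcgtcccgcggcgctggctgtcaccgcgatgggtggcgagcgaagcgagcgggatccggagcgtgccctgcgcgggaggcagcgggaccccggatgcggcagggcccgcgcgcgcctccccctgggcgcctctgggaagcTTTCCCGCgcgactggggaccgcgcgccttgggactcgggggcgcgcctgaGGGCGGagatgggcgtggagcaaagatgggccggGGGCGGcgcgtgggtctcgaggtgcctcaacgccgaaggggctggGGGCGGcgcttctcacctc
Cdkn2a, downstream start: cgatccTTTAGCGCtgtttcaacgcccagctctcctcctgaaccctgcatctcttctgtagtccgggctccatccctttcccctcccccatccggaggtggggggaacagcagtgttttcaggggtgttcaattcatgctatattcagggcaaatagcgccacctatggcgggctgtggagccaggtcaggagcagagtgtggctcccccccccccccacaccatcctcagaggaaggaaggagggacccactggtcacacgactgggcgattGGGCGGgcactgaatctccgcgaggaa
Cdkn2b: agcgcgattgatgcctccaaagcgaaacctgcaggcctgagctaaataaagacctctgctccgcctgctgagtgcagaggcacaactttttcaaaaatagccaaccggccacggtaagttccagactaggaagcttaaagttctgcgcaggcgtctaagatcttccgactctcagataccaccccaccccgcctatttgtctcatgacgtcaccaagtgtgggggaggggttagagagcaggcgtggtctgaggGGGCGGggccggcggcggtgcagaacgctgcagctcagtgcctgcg
Cdkn1a, upstream start: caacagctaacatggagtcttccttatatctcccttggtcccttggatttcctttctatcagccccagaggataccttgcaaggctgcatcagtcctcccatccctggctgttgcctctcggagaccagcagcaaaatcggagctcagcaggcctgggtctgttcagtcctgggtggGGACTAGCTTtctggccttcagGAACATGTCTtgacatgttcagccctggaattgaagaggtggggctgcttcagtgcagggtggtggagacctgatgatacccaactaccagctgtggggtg

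Both Cdkn2a windows held 1 E2F site, with 3 Sp1 boxes in the upstream window and 1 in the downstream window, and the Cdkn2b window held 1 Sp1 box. Of the 2 Cdkn2c windows the upstream one held 4 Sp1 boxes. The Cdkn1a upstream window held 2 p53 half-sites, 73 and 51 bases before the start, and its downstream window, chr17:29093519-29093818, held 2 Sp1 boxes and 1 T-box core. A p53 half-site also stood in the windows of Ccng1 and Mdm2, and a MEF2 site in that of Cdkn1b. These matches are shown in capitals with 15 bases on each side where the window allowed it. No GATA site or TATA box was found in the 10 windows, and a match or its absence here describes letters and not binding.
Ccng1, chr11:40755447-40755486, minus strand: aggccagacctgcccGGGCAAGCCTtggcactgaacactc
Mdm2, chr10:117710920-117710959, minus strand: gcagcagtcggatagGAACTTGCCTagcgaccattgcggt
Cdkn1b, chr6:134920151-134920188, plus strand: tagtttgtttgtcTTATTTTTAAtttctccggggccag

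Values are log2 signals, so a difference of 1 is 2-fold, and they are read within a gene across arrays and not between genes. Each array also carried 5222 negative-control probes, and their 95th percentile lay between 8.43 and 9.33, depending on the array. Signals of 4 members (Cdkn1a, Trp53inp1, Ccng1 and Mdm2) were above that percentile on every array. Cdkn2b exceeded it on 5 arrays and Cdkn2a on 2, while Cdkn1b, Cdkn1c and Cdkn2c stayed below it on all 7. Differences of 1 or more, up or down, were called 2-fold apart if the brighter of the 2 signals was at or above its array's median over named genes (5.38 to 5.71). Applied to the negative-control probes that reached this floor, the rule called 26.8% to 54.2% of them over the 12 comparisons, so a 2-fold difference between signals below the percentile carries little weight.

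**Figure D1:**
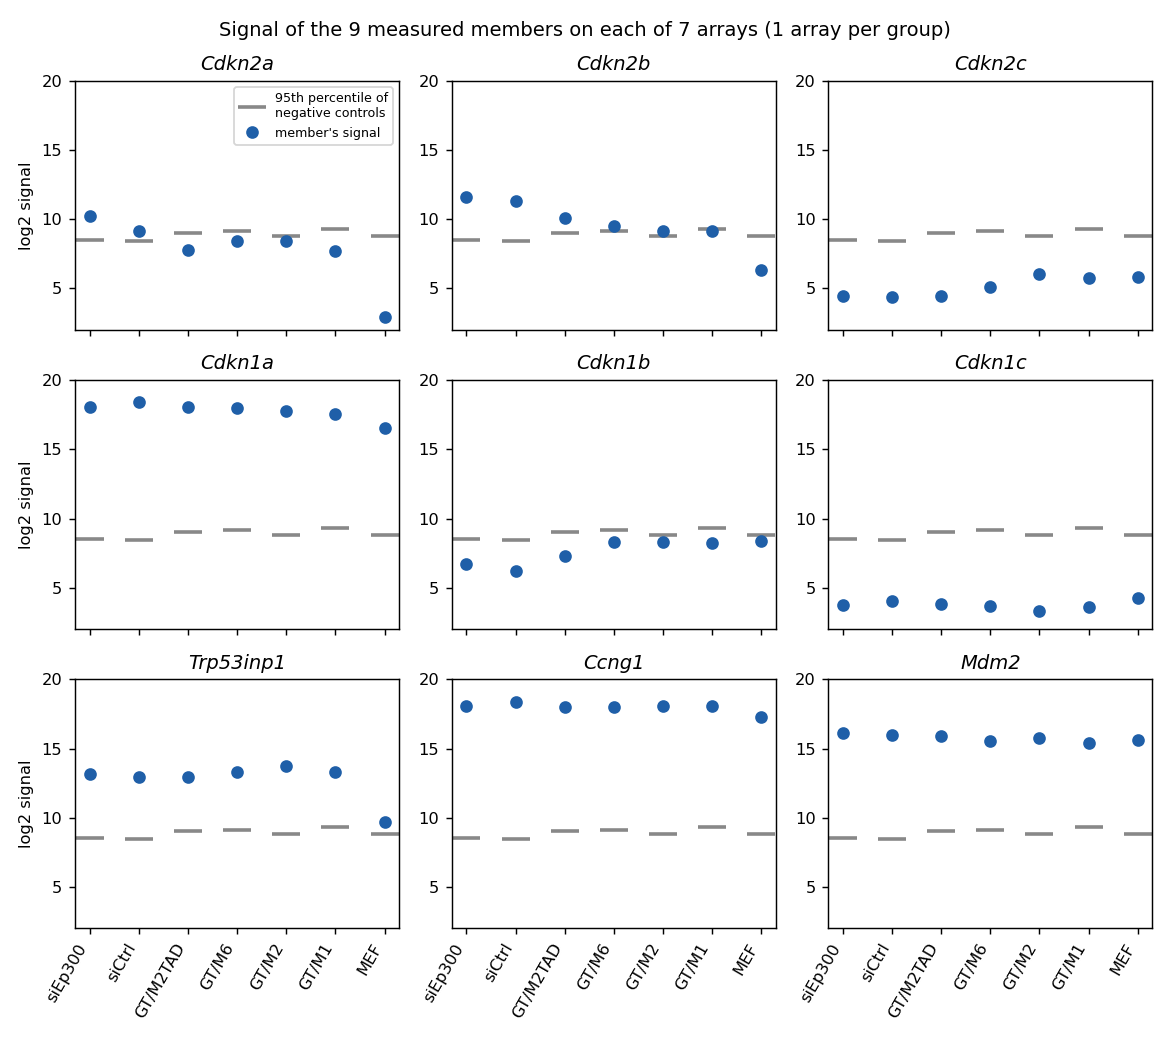
Log2 signal (vertical axis) of each of the 9 measured members on the 7 arrays (horizontal axis), 1 point per array. Grey bars mark each array's 95th percentile of negative controls. Cdkn2a, Cdkn2b, Trp53inp1 and Cdkn1a have their lowest point on MEF, and Cdkn1b, Cdkn1c and Cdkn2c stay under the bars throughout.

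Of the delivered genes, Mef2c had 18.32 to 18.87 on the transduced arrays, against 8.24 on MEF, and Tbx5 had 14.82 to 16.23, against 5.72 on MEF. The Gata4 probe set stayed below the negative-control percentile on all 7 arrays, at 3.57 to 5.09 on the transduced arrays and 4.22 on MEF. Ep300, the siRNA target, had 9.47 on siEp300, 9.90 on siCtrl, 9.98 on GT/M2TAD, 10.22 on GT/M6, 9.90 on GT/M2, 9.96 on GT/M1 and 9.87 on MEF. It was lowest on siEp300, with a difference of -0.43 from siCtrl.

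Cell type markers were read on the same scale. Of 11 measured fibroblast genes, 10 exceeded the negative-control percentile on each of siEp300, siCtrl and MEF, 8 on GT/M2TAD, 9 on GT/M6 and 6 on each of GT/M2 and GT/M1. Of 10 cardiac muscle genes, 6 or 7 exceeded it on each transduced array and 1 on MEF. The median signal of the cardiac list was 9.92 on siEp300, 9.56 on siCtrl and 11.53 to 13.27 on the other transduced arrays, against 4.98 on MEF. That of the fibroblast list was 12.83 on siEp300, 12.89 on siCtrl and 10.10 to 11.33 on the other transduced arrays, against 13.49 on MEF. None of 8 macrophage genes exceeded it on any array, and of 8 endothelial genes only Kdr did, on MEF. Up to 2 of 8 epithelial genes and 1 to 4 of 7 neural genes did. The part of these lists in the differences of the members was not tested, and in such bulk RNA fewer cells of a type and less RNA per cell cannot be told apart.

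Among INK4 inhibitors, Cdkn2b, which encodes p15Ink4b, stood higher on all 6 transduced arrays. It had 11.60 on siEp300, 11.33 on siCtrl, 10.11 on GT/M2TAD, 9.50 on GT/M6, 9.15 on GT/M2 and 9.14 on GT/M1, against 6.30 on MEF. The siRNA pair was highest and GT/M2 and GT/M1 were level with each other. The differences from MEF were 5.31, 5.03, 3.81, 3.21, 2.86 and 2.84 in the same order of arrays. Since the MEF signal lay under its negative-control percentile of 8.81, that percentile was put in its place to give a bound. By this bound Cdkn2b was at least 6.96-fold higher on siEp300, 5.74-fold on siCtrl, 2.46-fold on GT/M2TAD, 1.61-fold on GT/M6 and 1.27-fold on GT/M2. On GT/M1 the signal was itself under the percentile of 9.33, so no bound is given there.

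Cdkn2a, whose 1 value is not split here between p16Ink4a and p19Arf, had 10.24 on siEp300, 9.15 on siCtrl, 7.81 on GT/M2TAD, 8.45 on GT/M6, 8.40 on GT/M2 and 7.71 on GT/M1, against 2.96 on MEF. Differences from MEF ran from 4.76 on GT/M1 to 7.28 on siEp300. Only the siRNA pair exceeded the negative-control percentile, where the bounds were at least 2.69-fold higher on siEp300 and 1.27-fold on siCtrl. On the 4 arrays without siRNA both signals lay below it, and the sizes of 4.76 to 5.49 rest on background.

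The third INK4 gene, Cdkn2c, which encodes p18Ink4c, had 4.44 on siEp300, 4.38 on siCtrl, 4.42 on GT/M2TAD, 5.09 on GT/M6, 6.07 on GT/M2 and 5.78 on GT/M1, against 5.86 on MEF. It counted as 2-fold lower on siEp300 (-1.42), siCtrl (-1.48) and GT/M2TAD (-1.44), all between signals below the percentile. A further INK4 gene outside the list, Cdkn2d, had signals of 6.13 to 7.32 over the 7 arrays, also all below the percentile. Cdkn2d counted as 2-fold lower than MEF on siEp300 (-1.13), siCtrl (-1.18) and GT/M1 (-1.0).

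Of the CIP/KIP inhibitors, Cdkn1a, which encodes p21, was the one well above background. Its signals were 18.07 on siEp300, 18.39 on siCtrl, 18.05 on GT/M2TAD, 17.98 on GT/M6, 17.75 on GT/M2 and 17.57 on GT/M1, against 16.53 on MEF. Each transduced signal was above the MEF signal, with 1 array per group. The differences of 1.54, 1.85, 1.52, 1.45, 1.21 and 1.03 correspond to 2.90-, 3.62-, 2.86-, 2.73-, 2.32- and 2.05-fold higher signals in that order. After median centring of the arrays GT/M2 and GT/M1 fell short of 2-fold, at 0.89 and 0.73. The highest gene on these arrays reached 19.51 to 19.76, and signals near the top of the scale can understate differences.

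Cdkn1b, which encodes p27Kip1, separated the arrays another way. It had 6.74 on siEp300, 6.23 on siCtrl, 7.26 on GT/M2TAD, 8.32 on GT/M6, 8.31 on GT/M2 and 8.26 on GT/M1, against 8.40 on MEF. GT/M6, GT/M2 and GT/M1 lay within 0.14 of MEF, whereas siEp300, siCtrl and GT/M2TAD were lower, with differences of -1.66, -2.17 and -1.15. All 7 signals were under the negative-control percentile. Cdkn1c, the imprinted gene of p57Kip2, lay between 3.33 and 4.02 on the transduced arrays, against 4.24 on MEF, and no difference reached 2-fold.

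Trp53inp1, whose product is induced with p53 activity and takes part in stress responses and autophagy, had the largest difference from MEF among members measured above background on every array. Its signals were 13.18 on siEp300, 12.96 on siCtrl, 12.96 on GT/M2TAD, 13.27 on GT/M6, 13.72 on GT/M2 and 13.28 on GT/M1, against 9.70 on MEF. The 6 transduced arrays spanned 0.76, and each was between 9.56- and 16.2-fold above MEF. GT/M2 was highest here, unlike for Cdkn2b and Cdkn1a.

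Ccng1, which encodes a cyclin that feeds back on p53 through Mdm2, had 18.11 on siEp300, 18.38 on siCtrl, 18.02 on GT/M2TAD, 18.02 on GT/M6, 18.06 on GT/M2 and 18.05 on GT/M1, against 17.30 on MEF. Every transduced array was higher, by 0.72 to 1.08, and siCtrl alone reached 2-fold. Under quantile normalization the differences of siEp300, GT/M6, GT/M2 and GT/M1 also did, at 1.01, 1.08, 1.01 and 1.06, and after level-dependent centring those of all 6 arrays. Mdm2, the ubiquitin ligase of p53, had 16.16 on siEp300, 15.99 on siCtrl, 15.90 on GT/M2TAD, 15.54 on GT/M6, 15.77 on GT/M2 and 15.42 on GT/M1, against 15.61 on MEF. Its differences of -0.19 to 0.54 stayed under 2-fold and changed sign with the scaling on GT/M6, GT/M2 and GT/M1.

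**Figure D2:**
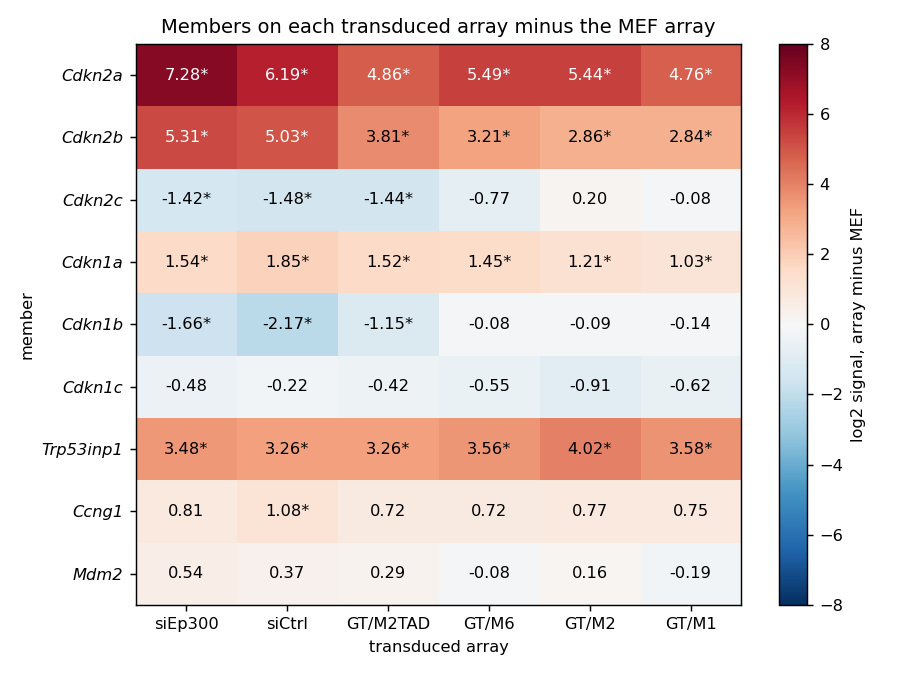
Log2 signal of each member (rows) on each transduced array (columns) minus its signal on MEF, printed in each cell and coloured red for higher and blue for lower. An asterisk marks a difference that counts as 2-fold apart. Cdkn2a, Cdkn2b, Cdkn1a and Trp53inp1 carry a positive one in every column, and Cdkn1b and Cdkn2c a negative one on siEp300, siCtrl and GT/M2TAD.

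In counts, 4 of 9 members were 2-fold higher than MEF on siEp300, 5 on siCtrl, and 4 on each of GT/M2TAD, GT/M6, GT/M2 and GT/M1. Over all 19505 genes the rule called 13.4% higher on siEp300, 10.9% on siCtrl, 14.0% on GT/M2TAD, 13.0% on GT/M6, 13.6% on GT/M2 and 12.5% on GT/M1. Cdkn1a, Cdkn2a, Cdkn2b and Trp53inp1 were higher on all 6 arrays, as were 6.28% of all genes. On the 4 arrays without siRNA 8.92% were higher. The calls of Cdkn2a on those 4 arrays and of Cdkn2b on GT/M1 lie between signals below the negative-control percentile. These comparisons share the MEF array. Members 2-fold lower were 2 on siEp300, 2 on siCtrl, 2 on GT/M2TAD and 0 on the other 3 arrays. The shares of all genes were 9.29%, 10.9%, 9.5%, 8.79%, 8.34% and 9.52% in the order siEp300, siCtrl, GT/M2TAD, GT/M6, GT/M2 and GT/M1, with 4.74% lower on all 6 and 5.97% on the 4 without siRNA. No member was lower on all of either set.

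The median member difference from MEF was 0.81 on siEp300, 1.08 on siCtrl, 0.72 on GT/M2TAD, 0.72 on GT/M6, 0.77 on GT/M2 and 0.75 on GT/M1. Over all genes the median was 0.124, 0.012, 0.091, 0.077, 0.072 and 0.089 on the same arrays. Higher genes made up 59.1%, 50.1%, 59.6%, 59.7%, 61.9% and 56.8% of all calls in that order, and after median centring 47.8%, 46.6%, 47.5%, 43.1%, 46.8% and 41.9%. After quantile normalization GT/M2TAD had 49.6% and GT/M6 49.3%, and GT/M2 was evenly split, so the balance of directions over all genes depends on the scaling.

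Other p53 targets were read from a list of 35 genes, 33 of them measured. Of these, 18 were 2-fold higher than MEF on siEp300 (54.5%), 15 on siCtrl (45.5%), 14 on GT/M2TAD (42.4%), 14 on GT/M6 (42.4%), 18 on GT/M2 (54.5%) and 16 on GT/M1 (48.5%), beside the shares over all genes given above. At most 3 were lower on any array. With the floor raised to the negative-control percentile, 14 were higher on siEp300, 12 on siCtrl, 9 on GT/M2TAD, 9 on GT/M6, 14 on GT/M2 and 9 on GT/M1. Of all 19505 genes, 1716, 1417, 1629, 1437, 1596 and 1273 were higher at that floor in the same order. List medians were 1.21, 0.60, 0.79, 0.85, 1.31 and 0.93 in the same order. A set of 13 was higher on all 4 arrays without siRNA: Fas, Sesn1, Eda2r, Btg2, Xpc, Rrm2b, Perp, Pidd1, Ephx1, Dcxr, Cd82, Tap1 and Pltp. Of these, Eda2r, Btg2, Perp, Ephx1, Dcxr and Cd82 exceeded that percentile on all 7 arrays and Tap1 and Pltp on the 6 transduced ones. Fas did on 3 arrays, Rrm2b on 4, Sesn1 and Pidd1 on 1 each and Xpc on 0. Other targets did not rise. Aen, Zmat3, Polk, Apaf1 and Ak1 exceeded that percentile on all 7 arrays and were 2-fold apart from MEF on none. Aen differed by -0.21 to -0.74. Phlda3 was 2-fold lower on siEp300 (-1.79) and siCtrl (-1.33).

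Perp, a membrane protein gene linked to p53-dependent apoptosis and desmosomes, had 13.95 on siEp300, 13.58 on siCtrl, 14.97 on GT/M2TAD, 15.47 on GT/M6, 15.75 on GT/M2 and 15.65 on GT/M1, against 10.50 on MEF. The antiproliferative gene Btg2 was 3.27, 2.96, 3.15, 2.20, 2.84 and 2.34 above MEF on those arrays. The receptor gene Eda2r was 1.88, 1.98, 1.38, 1.44, 1.84 and 1.71 above MEF in the same order. All 3 genes exceeded the negative-control percentile on every array. Pltp, a phospholipid transfer protein gene, differed most, with 13.11 on siCtrl to 14.57 on GT/M6, against 7.50 on MEF, below that percentile. It was at least 19.7-fold higher on siCtrl and 54.3-fold on GT/M6 by the bound used for Cdkn2b.

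The kinase gene Plk2 was lower on the arrays without siRNA. It had 13.47 on siEp300, 13.57 on siCtrl, 10.87 on GT/M2TAD, 10.95 on GT/M6, 11.30 on GT/M2 and 10.80 on GT/M1, against 14.15 on MEF. The siRNA pair thus lay within 0.68 of MEF and the other 4 arrays were lower, with differences of -2.85 to -3.34. Its relative Plk3 was 2-fold lower on all 6 transduced arrays, with every signal, the MEF one included, below the percentile.

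**Figure D3:**
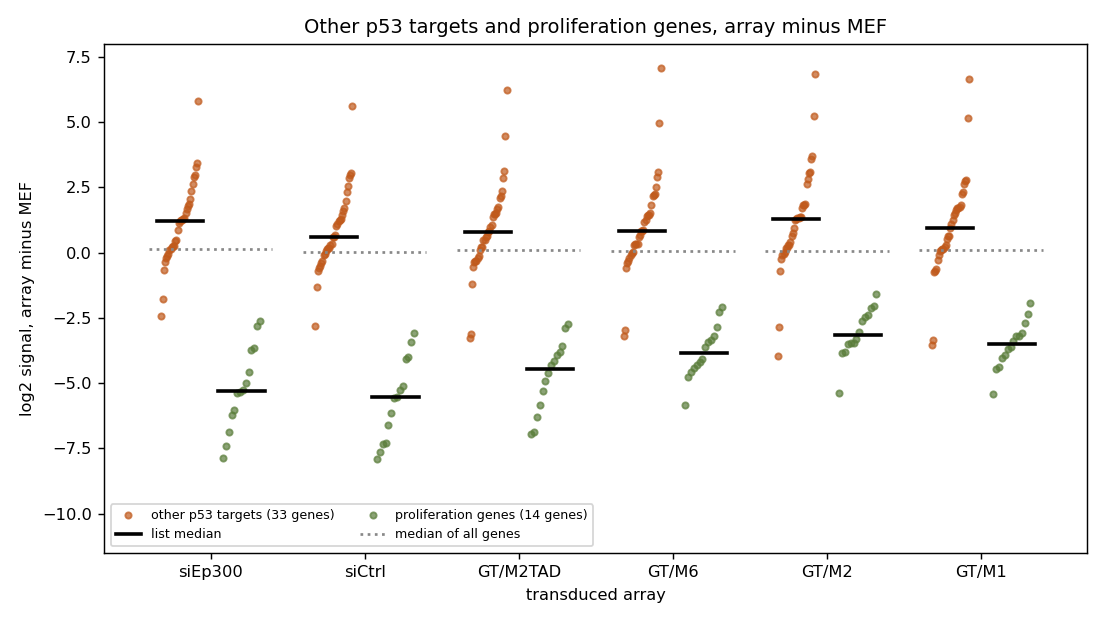
Log2 signal minus MEF (vertical axis) for 33 other p53 targets (orange) and 14 proliferation genes (green) on each transduced array (horizontal axis), 1 point per gene. Black bars are list medians and dotted lines the median of all genes. All 14 proliferation genes lie below -1 on every array, and the medians of the p53 targets lie between 0.60 and 1.31.

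Of 13 measured regulators of p53, 1 was higher and 2 lower than MEF on siEp300, 1 and 3 on siCtrl, 3 and 2 on GT/M2TAD, and 2 and 2 on each of GT/M6, GT/M2 and GT/M1. The p53 gene itself, Trp53, was sought with them but is not among the measured genes. A count of 2 is 15.4% of the list, beside 13.0% of all genes higher and 8.79% lower on GT/M6. Mdm4, an Mdm2 relative that also restrains p53, had 10.30 on siEp300, 10.25 on siCtrl, 11.39 on GT/M2TAD, 11.45 on GT/M6, 11.54 on GT/M2 and 11.71 on GT/M1, against 9.54 on MEF. Tbx2, a T-box repressor known to act on Cdkn2a, had 9.13 on siEp300, 8.30 on siCtrl, 10.22 on GT/M2TAD, 10.60 on GT/M6, 11.92 on GT/M2 and 11.47 on GT/M1, against 8.05 on MEF. It was 2-fold higher on every transduced array but siCtrl, and its MEF signal lay below the percentile. The checkpoint kinase gene Chek1 was lower on all 6, from a MEF signal of 10.24 to signals below the percentile, at least 1.88- to 3.52-fold, and the deubiquitinase gene Usp7 differed by -0.84 to -1.56.

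The list of Cdk and cyclin machinery, which also holds E2F factors and the INK4 inhibitor Cdkn2d, was mostly lower. Of 30 measured genes, 19 were 2-fold lower than MEF on siEp300, 20 on siCtrl, 19 on GT/M2TAD, 18 on GT/M6, 17 on GT/M2 and 20 on GT/M1, and 2 or 3 were higher. That is 56.7% to 66.7% of the list lower and 6.67% to 10.0% higher, beside the shares over all genes given above. The floor was also raised to the negative-control percentile. Of all 19505 genes, 1381 were then lower on siCtrl, 1248 on GT/M2TAD, 1172 on GT/M6, 1069 on GT/M2 and 1253 on GT/M1. Of this list, 14 were lower at that floor on each of siCtrl and GT/M2TAD, and 13 on each of GT/M6, GT/M2 and GT/M1. Lower on all 4 arrays without siRNA were 16, namely Cdkn3, Ccne1, Ccne2, Ccna2, Ccnb2, Cdk1, Cdk2, Rbl1, E2f1, E2f7, Skp2, Cks1b, Cks2, Cdc25a, Cdc25b and Cdc25c, and higher on all 4 were Cdk6 and Rbl2. Of the lower ones, Rbl1, E2f1, Cdc25b and Cdc25c were below the negative-control percentile on every array, MEF included. The S-phase kinase gene Cdk2 had 9.37 on siEp300, 9.50 on siCtrl, 9.70 on GT/M2TAD, 10.39 on GT/M6, 10.78 on GT/M2 and 10.26 on GT/M1, against 12.39 on MEF. Ccna2, cyclin A2, had 6.63, 5.45, 7.53, 9.27, 10.20 and 9.49 on those arrays, against 13.55 on MEF, with the first 3 below the percentile. Skp2, the F-box protein gene that targets p27Kip1 for degradation, exceeded the percentile on MEF alone, at 10.40. It was at least 3.7-fold lower on siEp300, 3.94-fold on siCtrl, 2.57-fold on GT/M2TAD, 2.41-fold on GT/M6, 2.99-fold on GT/M2 and 2.1-fold on GT/M1.

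Of the kinases bound by INK4 proteins, Cdk6 was higher and Cdk4 lower or level. Cdk6 had 14.48 on siEp300, 14.56 on siCtrl, 14.34 on GT/M2TAD, 14.19 on GT/M6, 13.84 on GT/M2 and 14.01 on GT/M1, against 12.80 on MEF, and was 2-fold higher throughout, with GT/M2 nearest the threshold at 1.04. Cdk4 had 14.64 on siEp300, 13.82 on siCtrl, 14.37 on GT/M2TAD, 15.35 on GT/M6, 15.69 on GT/M2 and 15.55 on GT/M1, against 15.54 on MEF. It was 2-fold lower on siCtrl and GT/M2TAD, with differences of -1.72 and -1.18, and differed by -0.90 on siEp300 and by -0.20 to 0.15 on the other 3 arrays. Rbl2, which encodes the retinoblastoma relative p130 of resting cells, was 1.63, 1.81, 1.77, 1.67, 2.05 and 1.47 above MEF from siEp300 to GT/M1. Rb1 itself differed by 2.42, 2.43, 1.37, 1.19, 1.12 and 0.86, and the MEF signals of both, 7.95 and 8.35, lay below the percentile.

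Proliferation genes were read as an RNA view of the cell cycle on each array, and cell cycle state itself was not tested. All 14 measured were 2-fold lower than MEF on every transduced array, as were 4.74% of all genes. The median signal of the 14 was 6.85 on siEp300, 6.63 on siCtrl, 7.60 on GT/M2TAD, 8.66 on GT/M6, 9.26 on GT/M2 and 8.82 on GT/M1, against 11.69 on MEF. Above the negative-control percentile were 2 of the 14 on siEp300, 2 on siCtrl, 1 on GT/M2TAD, 4 on GT/M6, 8 on GT/M2 and 4 on GT/M1, against all 14 on MEF. The proliferation marker Mki67 had 7.85 on siEp300, 7.65 on siCtrl, 8.97 on GT/M2TAD, 10.83 on GT/M6, 11.77 on GT/M2 and 10.87 on GT/M1, against 15.26 on MEF. On siEp300, siCtrl and GT/M2TAD, where Cdkn2b and Cdkn1a had their 3 highest signals, the proliferation medians were therefore at background and give no order among these arrays. Whether these values bear on one another was not tested.

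**Figure D4:**
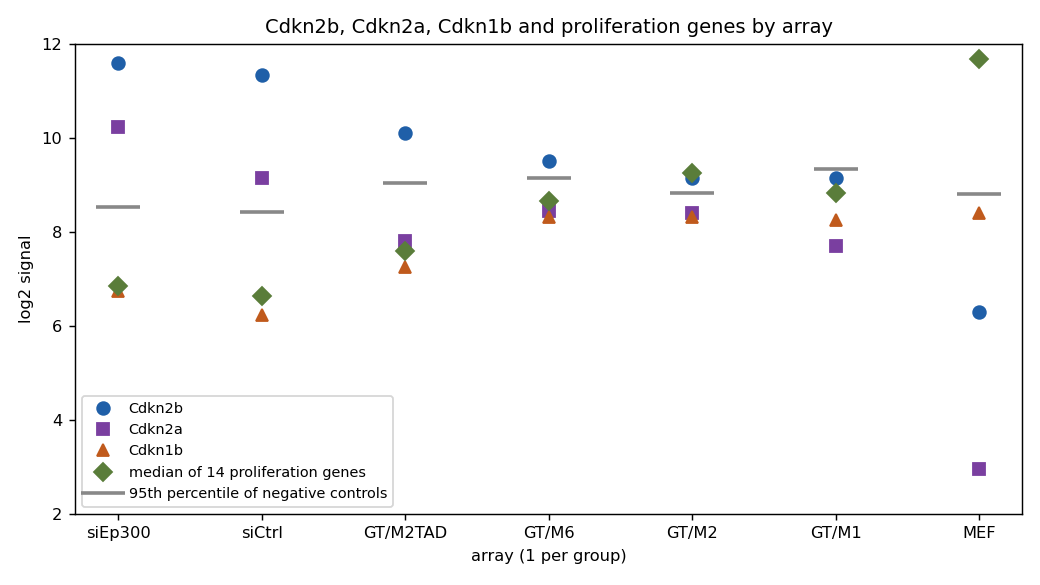
Log2 signal (vertical axis) of Cdkn2b, Cdkn2a, Cdkn1b and the median of 14 proliferation genes on each array (horizontal axis), with the 95th percentile of negative controls as grey bars. Heights compare within a symbol and not between symbols. Cdkn2b is highest on siEp300 and siCtrl, where the proliferation median is 6.85 and 6.63.

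Over the 6 transduced arrays Cdkn2a spanned 2.53, Cdkn2b 2.47 and Cdkn1b 2.09, while Cdkn1a, Mdm2, Ccng1 and Trp53inp1 each spanned less than 1. Among the isoform arrays no member was 2-fold apart for GT/M2 over GT/M1, where 1.9% of all genes were higher and 1.39% lower, nor for GT/M6 over GT/M1, where 0.646% were higher and 0.292% lower. None was for GT/M6 over GT/M2 either, beside 1.85% of genes higher and 1.71% lower. The nearest was Cdkn2c at -0.97 for GT/M6 over GT/M2, between signals below the negative-control percentile. With isoforms alone, Cdkn1a thus spanned 17.98 on GT/M6, 17.75 on GT/M2 and 17.57 on GT/M1, and with 1 array each this order has no spread to be judged against. Among 33 other p53 targets, Sesn1, a stress-induced inhibitor of mTORC1 signalling, was 1.36 higher and Triap1 1.11 higher on GT/M2 than on GT/M1, and Sesn1 differed by -1.36 for GT/M6 over GT/M2. Triap1 was below the percentile on every array, and Sesn1 exceeded it on GT/M2 alone. Higher genes made up 57.7% of calls for GT/M2 over GT/M1, against 46.5% after quantile normalization and 45.9% after level-dependent centring.

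The MyoD domain was examined as GT/M2TAD over GT/M2. No member was 2-fold higher, beside 2.96% of all genes, and 2 were 2-fold lower, Cdkn2c at -1.64 and Cdkn1b at -1.05, beside 3.33%. Both differences lie between signals below the negative-control percentile, and Cdkn1b missed 2-fold under each scaling, at -0.94 with quantiles, -0.99 with median centring and -0.98 with level-dependent centring. Cdkn2b, measured above the percentile on both arrays, was 0.96 higher on GT/M2TAD and reached 1.01, 1.02 and 1.01 under those 3 scalings. Trp53inp1 differed by -0.75, at 12.96 against 13.72 on GT/M2. Of 14 proliferation genes, 11 were 2-fold lower on GT/M2TAD. Of these, Mcm3, Mcm5, Bub1 and Aurkb were below the percentile on both arrays. Only 1 of the 14 exceeded it on GT/M2TAD, and 8 did on GT/M2. Among other p53 targets 4 of 33 were 2-fold lower and 0 higher, with Sesn1 at -1.83, Rps27l at -1.38 and Pidd1 at -1.36 the furthest apart. Sesn1 and Pidd1 exceeded the percentile on GT/M2 alone.

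siCtrl was set against GT/M2TAD because part of its labels give it the same factors. Its title names isoform 2 instead, and no comparison with GT/M2 was made. On GT/M2, Cdkn2b had 9.15, Cdkn2a 8.40 and Cdkn1b 8.31, so the sizes below depend on which label is right. Cdkn2a was 1.33 higher and Cdkn2b 1.21 higher on siCtrl, and Cdkn1b differed by -1.03. So 2 members were 2-fold higher, beside 3.04% of all genes, and 1 was lower, beside 6.38%. Cdkn2b exceeded the negative-control percentile on both arrays, at 11.33 on siCtrl and 10.11 on GT/M2TAD. Cdkn2a did so on siCtrl alone, with a bound of at least 1.07-fold. Cdkn1b missed 2-fold under the 3 scalings, at -0.78, -0.84 and -0.73. Of the other p53 targets, Plk2 was 2.70 higher on siCtrl, and Perp and Xpc were lower, with differences of -1.39 and -1.28. Both Xpc signals were below the percentile. The median of all genes was -0.14 here, and 32.2% of calls were higher on siCtrl, against 51.7% after quantile normalization, 49.4% after median centring and 56.0% after level-dependent centring.

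Ep300 siRNA was examined as siEp300 over siCtrl, with the difference of -0.43 in Ep300 itself given above. Cdkn2a was 1.10 higher, at 10.24 on siEp300 and 9.15 on siCtrl, with both signals above the negative-control percentile. It was the only member 2-fold higher, beside 1.93% of all genes, and no member was lower, beside 0.39%. The call was lost with quantiles equalized (0.85), with medians equalized (0.93) and after level-dependent centring (0.90). All genes had a median of 0.142, and higher genes made up 83.2% of calls, against 48.9%, 58.0% and 51.2% under those scalings. Cdkn2b was 0.28 higher and Mdm2 0.17 higher on siEp300, while Cdkn1a differed by -0.32 and Ccng1 by -0.27, the last at 0.0 after quantile normalization. The DNA damage response gene Gadd45a, at 8.73 on siEp300 and 7.64 on siCtrl, was the 1 other p53 target of 33 that was 2-fold apart. Its siCtrl signal lay below the percentile.

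**Figure D5:**
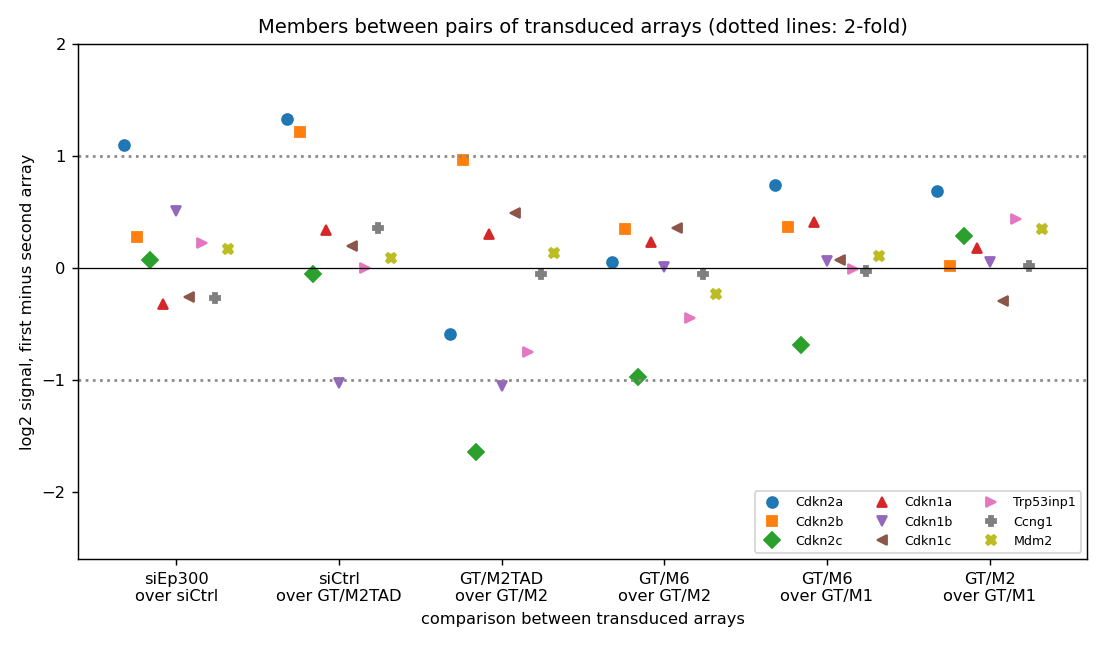
Log2 signal of each member on the first minus the second array (vertical axis) for 6 pairs of transduced arrays (horizontal axis), 1 symbol per member. Dotted lines mark 2-fold. Points beyond them are Cdkn2a for siEp300 over siCtrl, Cdkn2a, Cdkn2b and Cdkn1b for siCtrl over GT/M2TAD, and Cdkn2c and Cdkn1b for GT/M2TAD over GT/M2.

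Genes with the most similar pattern were sought for the 5 members that exceeded the negative-control percentile on at least 1 array and ranged over at least 1. Likeness was the root mean square difference of log2 profiles, each centred on its own mean over the 7 arrays, among 4851 other genes with the same properties and no predicted-gene name. Nearest to Cdkn1a was Cdk6 at 0.117, followed by Plekhh2 at 0.127 and Hip1 at 0.146. Nearest to Ccng1 were Jph2 at 0.074 and R3hdm2 and Ube3b at 0.102 each. For Trp53inp1 they were AW146154 at 0.225, Ube2h at 0.233 and Samd12 at 0.246. Cdkn2b had Lgals3bp at 0.321, Pbxip1 at 0.367 and Cnnm2 at 0.394. The muscle genes Tnnc1 and Des, at 0.405 and 0.575, and the glycogenin gene Gyg, at 0.602, came nearest to Cdkn2a. Of the 7 Cdkn2a signals 5 were below the percentile, so its profile and its neighbours rest largely on background, and Cdkn2b had 2 such signals. All these profiles share the same 7 arrays, and the low MEF value weighs on each.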

How the data were processed

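The deposited values were log2 signals of 28846 probe sets, which the authors made with SST-RMA per the series text and with Affymetrix Expression Console 1.4 per the submitters' processing notes. Its settings and genome build are not given in the sources used here. Per the labels' protocols, RNA of integrity number above 7.0 was used, 100 ng per array. Of the probe sets, 19572 had 1 gene symbol, all matched by Entrez identifier to the RefSeq gene table, with 0 symbols changed, and gave 19505 genes. Where a gene had more than 1 (55 genes), its brightest probe set over the 7 arrays was taken. Differences were computed in Python 3.11.15 with pandas 2.3.3 from unrounded signals, and the calling step was tested on simulated data. That simulation had little noise and changed only genes well above the median, so it does not bear on calls near background. With 1 array per group there was no test, spread or p-value, and the number of arrays limits the precision. The 12 comparisons and the size rule are given with the results. Members and lists were chosen with earlier results of these data known. Named genes were all members, list genes 2-fold apart in 1 direction on all 4 arrays without siRNA and the 3 nearest profiles. The 3 list genes furthest apart between transduced arrays were also named. Cdk4, Rb1, Cdkn2d, Phlda3, Aen, Zmat3, Polk, Apaf1 and Ak1 were added after their values were seen. Alternatives were 3 scalings, 2 other floors, a 1.5-fold size and the mean of probe sets.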

Additional observations from a re-analysis of the deposited data

How the results depend on the processing

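Of the counts of members 2-fold apart in 12 comparisons, all 12 were within 1.5 times without a floor and with the mean of probe sets, and 11 under each of median centring, level-dependent centring and quantile normalization. The exception was siEp300 over siCtrl, with 0 members under each of these 3 scalings in place of 1. With the floor at the 95th percentile of negative-control probes, 2 members remained 2-fold apart for GT/M1 over MEF (Cdkn1a and Trp53inp1), 3 for GT/M2TAD over MEF (those and Cdkn2b) and 0 for GT/M2TAD over GT/M2, in place of 4, 6 and 2. With a size of 1.5-fold, the counts were 1 for GT/M2 over GT/M1, 2 for GT/M6 over GT/M1, 1 for GT/M6 over GT/M2 and 5 for GT/M2TAD over GT/M2, in place of 0, 0, 0 and 2. No 2-fold member difference changed sign under any scaling. Cdkn2c also reached 2-fold for GT/M6 over MEF under the 3 scalings, at -1.09, -1.01 and -1.09. Of 84 counts for the other gene lists, 26 moved by more than 1.5 times with the floor at that percentile, 39 with a size of 1.5-fold, 11 under quantile normalization, 10 under level-dependent centring, 7 under median centring, 3 without a floor and 0 with the mean of probe sets. Apart from the changes that follow from a lower or higher threshold, the cause was not tested. Signal over background limits Cdkn1b, Cdkn1c and Cdkn2c on all arrays and Cdkn2a on the 4 arrays without siRNA and MEF. No paired analysis was possible because each group had 1 array.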

Other observations

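Lists beside the cell cycle were read by the same rule. A list of 17 measured genes mixed factors often secreted by senescent cells with Hmgb1, Hmgb2 and Lmnb1, which such cells often lose, so its counts have no single direction. Of these, 4 were 2-fold higher and 6 lower than MEF on siEp300, 3 and 6 on siCtrl, 0 and 8 on GT/M2TAD, 2 and 6 on GT/M6, 2 and 8 on GT/M2 and 2 and 6 on GT/M1. That is 0.0% to 23.5% of the list higher and 35.3% to 47.1% lower. Over all genes 10.9% to 14.0% were higher and 8.34% to 10.9% lower on these arrays. The chemokine gene Ccl2 and the plasminogen activator gene Plau, both commonly named among secreted factors of senescent cells, were lower on all 6 arrays, each with its transduced signals below the negative-control percentile, by at least 6.16- to 11.5-fold and 4.79- to 8.98-fold. The secreted binding protein genes Igfbp5 and Igfbp3 were 2-fold higher on 5 of 6 arrays and not on GT/M2TAD. Igfbp5 had 10.03 on siEp300, 10.31 on siCtrl, 8.18 on GT/M2TAD, 12.57 on GT/M6, 12.31 on GT/M2 and 13.90 on GT/M1, against 8.65 on MEF. Igfbp3 had 10.50, 8.93, 6.18, 7.99, 7.81 and 7.95 on those arrays, against 6.15 on MEF, and exceeded the percentile on siEp300 and siCtrl. The nuclear protein genes Hmgb1 and Hmgb2 were lower as well, Hmgb1 with differences of -1.64 to -2.81 and above background throughout. Collagenase gene Mmp13 had 8.17 on siEp300 and 8.48 on siCtrl, against 3.26 to 3.96 on the arrays without siRNA and 3.79 on MEF, and only siCtrl exceeded its negative-control percentile.

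Among 16 genes of the Atf4 and Ddit3 stress programme, 5 were higher and 3 lower than MEF on siEp300, 5 and 3 on siCtrl, 4 and 2 on GT/M2TAD, 3 and 6 on GT/M6, 4 and 4 on GT/M2 and 4 and 7 on GT/M1. That is 18.8% to 31.2% of this list higher and 12.5% to 43.8% lower, beside the shares of all genes just given. Some counts are near those shares, such as 18.8% higher on GT/M6, beside 13.0%, and 12.5% lower on GT/M2TAD, beside 9.5%. Ddit3, a transcription factor gene of this programme, was higher on all 6 arrays by 1.52 to 2.48, and Sqstm1, an autophagy receptor gene, by 1.77 to 2.26. Atf5 was 2-fold higher too, by 1.03 to 1.72, but exceeded the negative-control percentile on siEp300 and siCtrl alone. By the bound it was at least 1.19-fold higher on each of these 2 arrays. Phgdh, an enzyme gene of serine synthesis, was lower on all 6, with differences of -1.56 to -2.47, as was the cystine transporter gene Slc7a11, with differences of -1.23 to -2.26 between signals below the percentile. Of 13 imprinted genes beside Cdkn1c, Mest, Sgce and Peg10 were 2-fold higher and Igf2, Dlk1 and Plagl1 2-fold lower than MEF on all 4 arrays without siRNA. Over all genes 8.92% were higher and 5.97% lower on all 4. Mest had 15.92 on siEp300 and 15.56 on siCtrl, against 17.96 to 19.06 on the arrays without siRNA and 14.47 on MEF.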
